A study of Homo sapiens with 6 samples.

Results

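The genes described here encode the negative feedback arm of the mitogen-activated protein kinase (MAPK) pathways, namely the dual-specificity phosphatases (DUSPs), the Sprouty (SPRY) and SPRED proteins and a small set of ERK-responsive genes. Members were taken by a rule on symbols that uses no measured value, although earlier results of these data were known when it was set. The rule took every row named DUSP with a number, SPRY1 to SPRY4 or SPRED1 to SPRED3, together with ETV1, ETV4, ETV5, PHLDA1, PHLDA2 and IL17RD. This gave 36 of the 54308 genes in the table. Of these, 32 had a value in all 6 libraries and were tested, and DUSP13, DUSP21, DUSP23 and DUSP27 had no value in any library.

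The RNA came from 143B cells, a human osteosarcoma line derived from HOS cells by transformation with a viral Ki-ras oncogene. The 3 vector control (VC) libraries were made from cells transfected with the vector plasmid, and the 3 CNTNAP4 KO libraries from cells transfected with the CNTNAP4 KO plasmid, a CRISPR/Cas9 construct. The labels give 48 h for both transfections, whereas the study's methods give a longer incubation before sorting. In the study's methods transfected cells of each kind were sorted as single cells and grown into clonal lines, and 3 independent RNA samples were prepared. The labels do not tie the libraries to particular clones, so a difference between the clones and an effect of the deletion cannot be told apart.

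MAPKs are switched on by phosphorylation of a threonine and a tyrosine in their activation loop, and the MAPK phosphatases (MKPs) of the DUSP family remove both phosphates. DUSP1, DUSP2, DUSP4 and DUSP5 are nuclear, inducible MKPs, DUSP6, DUSP7 and DUSP9 are cytoplasmic enzymes that prefer ERK, and DUSP8, DUSP10 and DUSP16 prefer JNK and p38. Sprouty and SPRED proteins act further upstream on the route from growth factor receptors to RAS and RAF. Many of these genes are themselves transcribed in response to ERK activity, which is why their mRNA levels are widely read as a measure of pathway output, and their induction limits the signal that induced them.

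The feedback genes did not move as a block. By limma's moderated test with Benjamini-Hochberg adjustment over all 19306 genes tested, 13 of the 32 were higher in KO, 5 were lower and 14 did not pass an adjusted p of 0.05. Over all genes, 13.1% were called higher, 19.8% lower and 32.9% in either direction. These counts depended on single libraries: of the 18 members and 6354 genes called in all, 5 members and 1223 genes passed without VC replicate 3, 6 and 1403 without VC replicate 1, 9 and 2450 without VC replicate 2, and 11 and 2018 without KO replicate 3. The higher members were DUSP1, DUSP5, DUSP6, DUSP10, DUSP18, SPRY2, SPRY4, SPRED1, SPRED2, SPRED3, ETV5, PHLDA1 and PHLDA2. DUSP7, DUSP8, DUSP19, DUSP26 and IL17RD were lower. In 16 members the 3 KO values all lay above the 3 VC values, in 7 they all lay below, and in 9 the groups overlapped, where 59.3% of all genes with 6 values had groups that did not overlap. The median log2 fold change of the 32 members was 0.09, and that of all genes tested was -0.13.

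**Figure D1:**
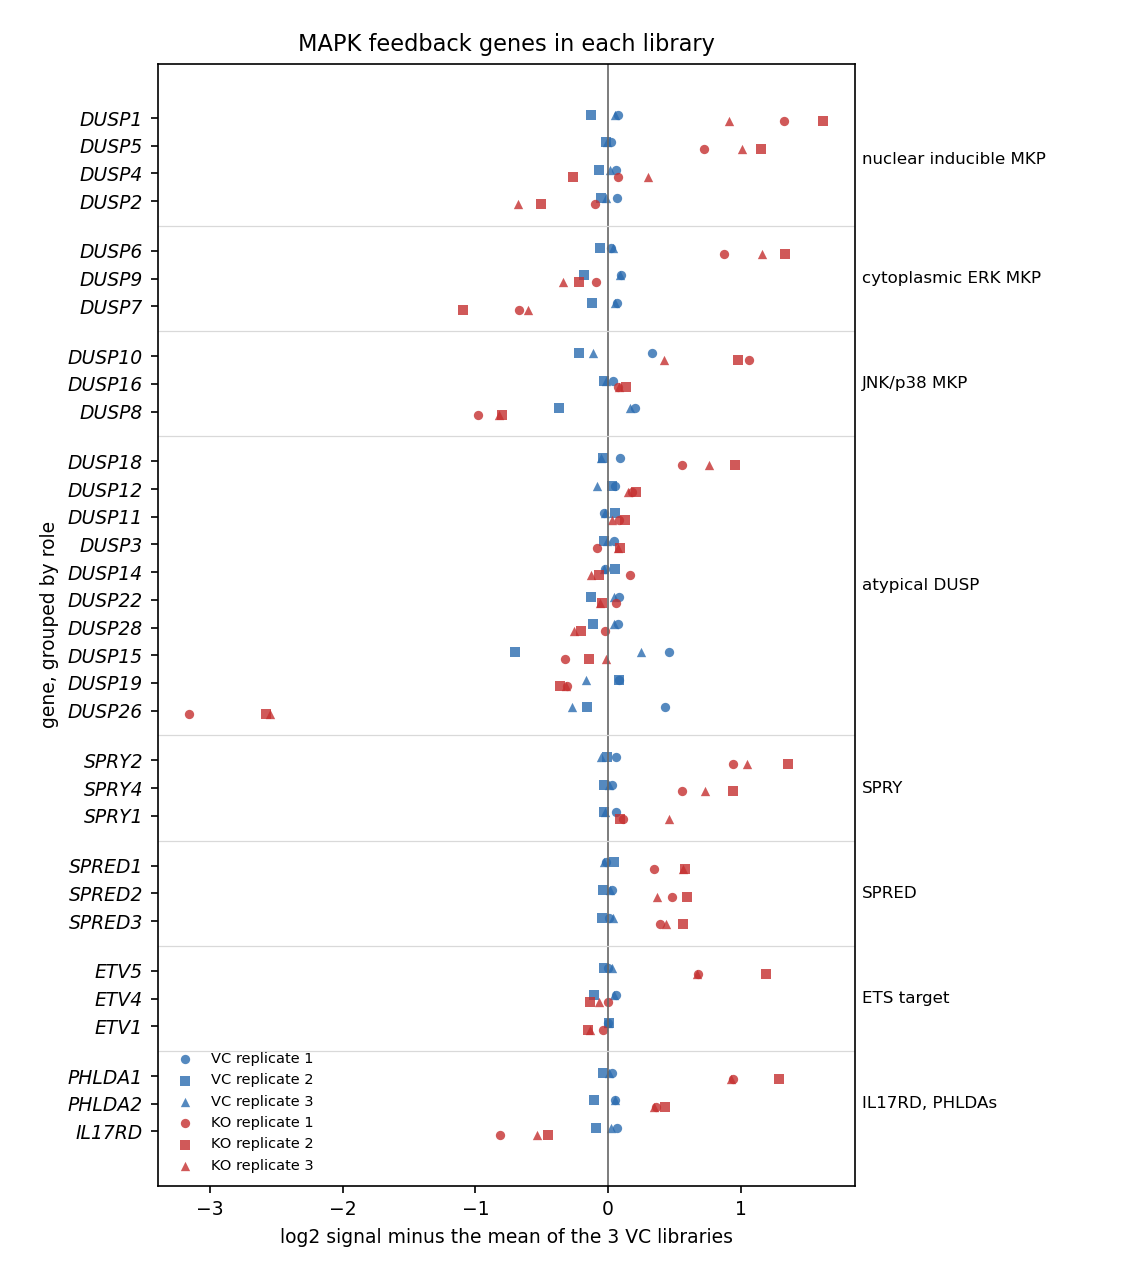
Log2 signal of each of the 32 measured members in each library, as the difference from the mean of the 3 VC libraries (x axis), by gene and role (y axis). VC replicates are blue and KO replicates red, and the marker shape gives the replicate number. The KO points of DUSP1, DUSP5, DUSP6, SPRY2, ETV5 and PHLDA1 lie to the right of every VC point, those of DUSP7, DUSP8 and DUSP26 lie to the left, and those of most atypical DUSPs sit among the VC points.

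For CNTNAP4 the table holds a single value (-7.18, in VC replicate 3), which gives no check of the deletion. The signals had been quantile-normalized by the authors, and the read depth of each library is unknown. The linear unit is not given in the sources used here, so levels were not compared between genes. Spread was wider among KO than among VC libraries, with a median SD of 0.182 against 0.0943 over the 17698 genes with 6 values, and of 0.155 against 0.062 over the members. Of the osteoblast lineage and mesenchymal markers, RUNX2, ALPL, COL1A1, SPP1 and VIM had values in all libraries. SP7 had values in 4 libraries, all at -6.52 or lower, and BGLAP in 2 KO libraries only. The leukocyte genes PTPRC and CD3E lay at -3.29 or lower, and CD3E had no value in 2 KO libraries. PTPRC did not pass the test (log2 fold change -1.18, adjusted p = 0.236). CD68, a lysosomal protein that is also used as a macrophage marker, was higher in KO (log2 fold change 1.66), so the summed linear signal of these 3 leukocyte markers was 21.6 to 23.0 in VC and 52.3 to 88.1 in KO. For the 3 epithelial markers, of which KRT20 had no value and CDH1 1, the sum was 3.07 to 3.47 in VC and 1.79 to 2.24 in KO. The sum over the 3 endothelial markers was at most 0.0579 in any library. The part of these shifts in the results below was not tested. In bulk RNA, a change in the share of cells of one type and a change in RNA per cell cannot be told apart.

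The nuclear inducible MKPs comprise DUSP1, DUSP2, DUSP4 and DUSP5, of which 2 were higher in KO and 2 did not pass the test. DUSP1, an immediate early phosphatase that acts on p38 and JNK as well as ERK, had log2 signals of 3.79, 3.59 and 3.76 in VC replicates 1, 2 and 3 and of 5.04, 5.34 and 4.63 in KO replicates 1, 2 and 3. Every KO library lay above every VC library, and the rise was 2.44-fold (log2 fold change 1.29, standard error 0.196, adjusted p = 0.0132). DUSP5, which is selective for ERK, had log2 signals of 5.68, 5.64 and 5.65 in VC and 6.38, 6.81 and 6.67 in KO. The VC values of DUSP5 were spread over a range far smaller than the gap to KO, and the log2 fold change was 0.96 (standard error 0.126, adjusted p = 0.0104), or 1.95-fold. DUSP4, also an ERK-inducible phosphatase, had 2.81, 2.68 and 2.77 in VC and 2.83, 2.49 and 3.05 in KO. Its KO values lay on both sides of the VC values, with a log2 fold change of 0.04 and a 95% interval of -0.36 to 0.43. DUSP2, known mainly from immune cells, had -0.74, -0.86 and -0.82 in VC and -0.90, -1.31 and -1.49 in KO. All 3 KO values of DUSP2 lay under the VC values, but the difference of -0.43 did not pass the test (adjusted p = 0.0961). Without VC replicate 3 the adjusted p of DUSP1 was 0.0517, and without KO replicate 1 that of DUSP2 was 0.0103. The 5 members that passed with any single library left out were DUSP5, DUSP6, DUSP26, SPRY2 and PHLDA1, each with an adjusted p of at most 0.0463.

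The cytoplasmic, ERK-preferring MKPs moved in opposite directions. DUSP6, an ERK-bound phosphatase and a standard marker of ERK output, had log2 signals of 5.63, 5.55 and 5.64 in VC and 6.48, 6.94 and 6.77 in KO. All KO values were above all VC values, a 2.18-fold rise (log2 fold change 1.13, standard error 0.133, adjusted p = 0.00963). DUSP7, a close relative that also prefers ERK, had 5.16, 4.97 and 5.14 in VC and 4.42, 4.0 and 4.49 in KO. Here every KO library lay below every VC library, and the log2 fold change was -0.79 (standard error 0.154, adjusted p = 0.0206). DUSP7 belongs to the MAPK gene list that the study drew from its own differentially expressed genes in these libraries, so its direction is not independent evidence. DUSP9 had 2.78, 2.51 and 2.78 in VC and 2.60, 2.47 and 2.35 in KO, with overlapping groups, a log2 fold change of -0.22 and a 95% interval of -0.51 to 0.08. The call of DUSP7 was lost without VC replicate 1, 2 or 3, at an adjusted p of 0.0717, 0.0515 and 0.0727.

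The JNK and p38 phosphatases split in the same manner. DUSP10 had log2 signals of -1.63, -2.18 and -2.08 in VC and -0.90, -0.98 and -1.54 in KO. The groups did not overlap, and the log2 fold change was 0.82 (standard error 0.235, adjusted p = 0.0478). DUSP8 had -0.75, -1.32 and -0.79 in VC and -1.93, -1.75 and -1.78 in KO, so that all KO values were below all VC values (log2 fold change -0.87, standard error 0.177, adjusted p = 0.0227). DUSP16, the third member, had 1.5, 1.43 and 1.45 in VC and 1.54, 1.59 and 1.54 in KO. The KO values of DUSP16 were all slightly above those of VC, a difference of 0.10 with a 95% interval of -0.06 to 0.26 that did not pass the test. DUSP8 and DUSP10 had low signals, and on a log2(signal + 1) scale, where signal is linear, they differed by -0.25 and 0.21. DUSP10 passed the test with a single library left out only when that library was KO replicate 3 (in the other fits the adjusted p was 0.0641 to 0.128). The call of DUSP8 was lost without VC replicate 1 (0.0717), VC replicate 3 (0.075) or KO replicate 3 (0.0661).

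DUSP1 and DUSP8, which moved in opposite directions, are the called members with a full cAMP response element (CRE, TGACGTCA), the element bound by CREB and ATF factors, among those whose proximal promoter was searched. DUSP5, DUSP26, ETV5 and PHLDA2 were not searched. The 150 bases before the RefSeq start of each gene (build GRCh38.p14) are shown to set these elements side by side, 5′ to 3′ on the gene's strand, with the CREs in capitals. DUSP1 lies on the minus strand at chr5:172771196-172771345 and DUSP8 on the minus strand at chr11:1572272-1572421.
DUSP1: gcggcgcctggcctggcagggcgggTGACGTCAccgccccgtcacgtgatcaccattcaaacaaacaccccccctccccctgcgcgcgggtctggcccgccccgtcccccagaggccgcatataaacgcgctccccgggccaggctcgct
DUSP8: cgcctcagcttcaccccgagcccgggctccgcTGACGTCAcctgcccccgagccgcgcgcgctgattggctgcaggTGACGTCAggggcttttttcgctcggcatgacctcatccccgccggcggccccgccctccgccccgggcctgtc
The DUSP1 element begins 125 bases before the start, and those of DUSP8 begin 118 and 74 bases before it. A search on both strands of the RefSeq windows of 300 bases, which run 50 bases past the start, covered 27 of the 36 members, 10 of them higher in KO. A CRE was found in 2 of these 27 and in 1.85% of all 35116 windows. The AP-1 element TGAGTCA occurred in SPRED3 alone (4.95% of all windows) and the ETS element CCGGAAG in DUSP15 alone (10.3%). The ATF4-C/EBP element TGATGCAA (0.866% of all windows) and the CArG box (1.29%) were in none of the 27. These are matches of letters and do not show that a factor is bound.

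Among the atypical DUSPs, which lack the MAPK-binding domain of the MKPs and of which several act on other substrates, 10 of 14 had values, and 1 was higher, 2 were lower and 7 did not pass the test. DUSP26 had the largest difference of any member. Its log2 signals were -2.29, -2.89 and -2.99 in VC and -5.88, -5.30 and -5.28 in KO, with a wide gap between the groups (log2 fold change -2.76, standard error 0.261, adjusted p = 0.00789). The KO signals of DUSP26 were low, and on the log2(signal + 1) scale it differed by -0.17 between the groups (adjusted p = 0.0133). It lies on chromosome 8, where 34.3% of 636 genes tested were called lower, against 19.8% of all genes. DUSP4, which did not pass the test, is on the same chromosome.

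DUSP18, an atypical phosphatase reported in mitochondria, had -0.15, -0.28 and -0.29 in VC and 0.31, 0.71 and 0.52 in KO. Every KO library was above every VC library, and the log2 fold change was 0.76 (standard error 0.123, adjusted p = 0.0148). On its chromosome, 22, 37.8% of 447 genes tested were called higher, against 13.1% of all genes. The part of the chromosome in either difference was not tested. On the log2(signal + 1) scale DUSP18 rose by 0.40, and its call was lost without VC replicate 1, VC replicate 3 or KO replicate 3 (adjusted p = 0.0502, 0.0584 and 0.0514). DUSP19 had 0.21, 0.21 and -0.04 in VC and -0.18, -0.23 and -0.19 in KO, a log2 fold change of -0.33 (adjusted p = 0.0482). This call was lost in each of the 6 fits that left out a library (adjusted p = 0.0585 to 0.143) and is the weakest of the 18. The difference of DUSP19 on the log2(signal + 1) scale was -0.16.

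The remaining 7 atypical DUSPs did not pass the test. DUSP12 (0.18, 95% interval -0.0013 to 0.36) had KO values of 4.43, 4.46 and 4.41 above VC values of 4.31, 4.29 and 4.17 (adjusted p = 0.106). It passed when low genes were dropped, leaving the 50% with the higher mean signal (adjusted p = 0.0455), and on the log2(signal + 1) scale (adjusted p = 0.0285). The log2 fold changes of DUSP3, DUSP11, DUSP14, DUSP15, DUSP22 and DUSP28 lay between -0.16 and 0.08, and the groups overlapped in each. DUSP3, known as VHR and able to act on ERK and JNK, had a 95% interval of -0.17 to 0.23, and DUSP22, a JNK pathway phosphatase, of -0.23 to 0.21. The interval of DUSP14 was -0.26 to 0.24. DUSP15, on chromosome 20, had the widest interval of the 7, -0.98 to 0.65, with VC values from -2.79 to -1.63.

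**Figure D2:**
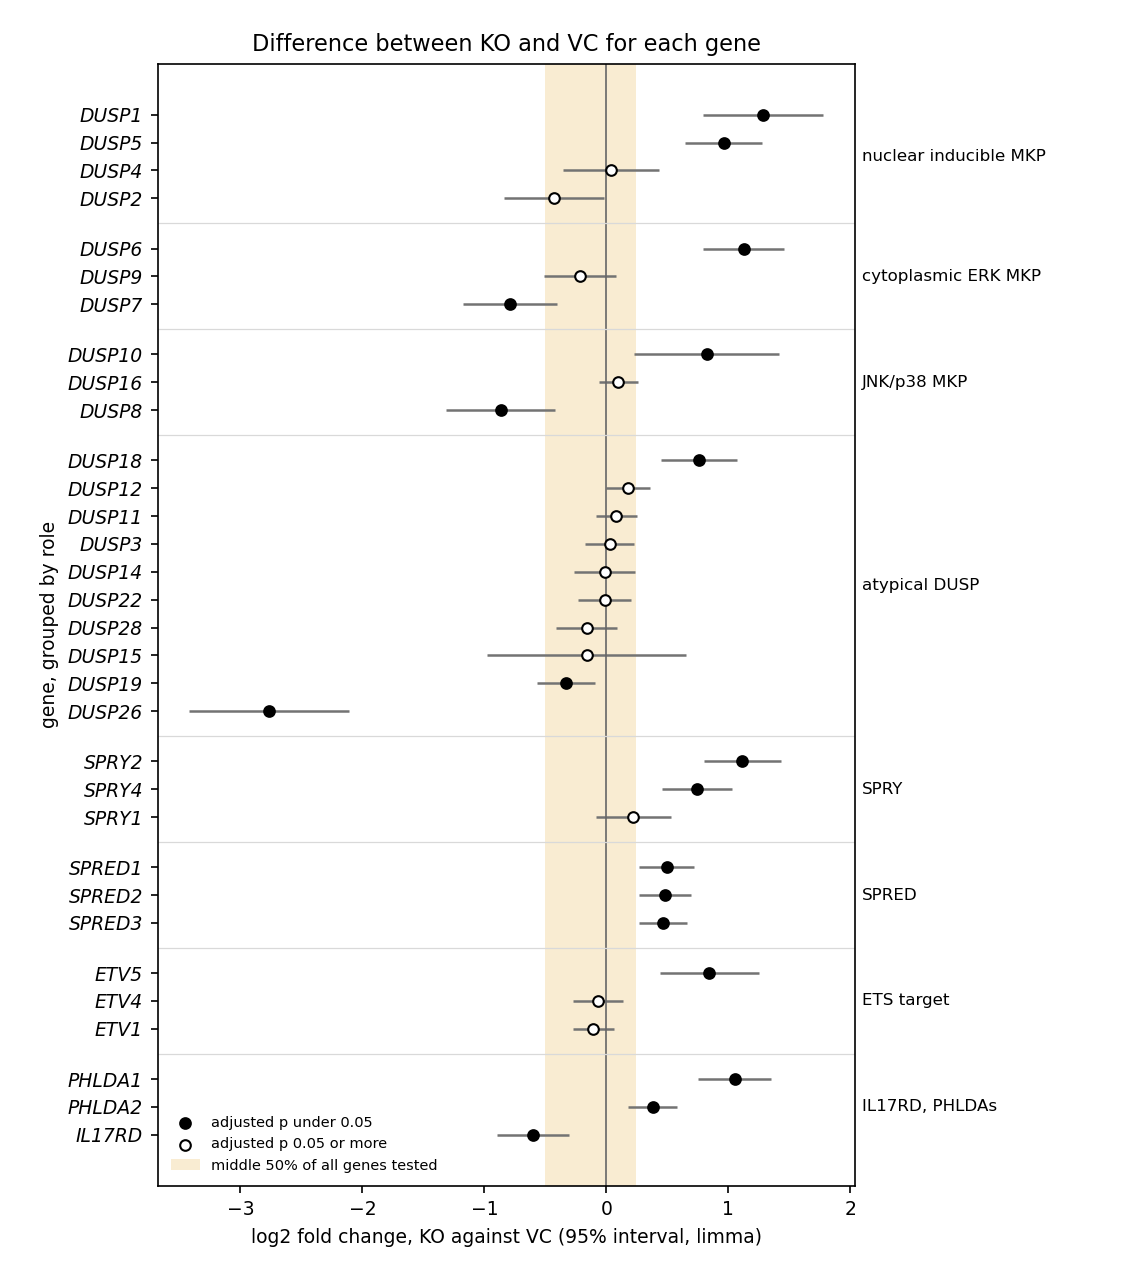
Log2 fold change of KO against VC (x axis) for each of the 32 measured members, grouped by role (y axis), with the 95% interval of limma's moderated fit. Filled points have an adjusted p under 0.05, and the band spans the middle 50% of all 19306 genes tested, from -0.50 to 0.24. The 3 SPRED genes sit together near 0.48, while the MKP groups hold members on both sides of 0.

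Of the Sprouty genes, whose products are induced by growth factors and restrain signalling between receptor tyrosine kinases and RAS-RAF, SPRY2 and SPRY4 were higher in KO. SPRY2 had log2 signals of 3.25, 3.19 and 3.15 in VC and 4.14, 4.55 and 4.25 in KO. The KO libraries were all above the VC libraries, a 2.16-fold rise (log2 fold change 1.11, standard error 0.125, adjusted p = 0.00898). SPRY4 had 3.70, 3.64 and 3.68 in VC and 4.22, 4.62 and 4.40 in KO, again without overlap (log2 fold change 0.74, standard error 0.115, adjusted p = 0.0136). SPRY1 had -0.16, -0.25 and -0.24 in VC and -0.11, -0.13 and 0.24 in KO. Its KO values were above those of VC, mostly by KO replicate 3, and the difference of 0.22 did not pass the test (95% interval -0.09 to 0.53). SPRY3 was not analysed here. SPRY4-AS1, a transcript antisense to the SPRY4 locus, also rose (log2 fold change 1.08, adjusted p = 0.0312), and how strand was used in counting is not given in the sources used here. The call of SPRY4 was lost without VC replicate 1 (adjusted p = 0.0528) or VC replicate 3 (0.0557).

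The 3 SPRED genes, of a family known for bringing the RAS-inactivating protein neurofibromin to the membrane, were all higher in KO and by nearly the same amount. SPRED1 had 4.41, 4.47 and 4.39 in VC and 4.77, 5.00 and 4.99 in KO (0.50 on the log2 scale, standard error 0.0897, adjusted p = 0.0176). SPRED2 had 3.77, 3.70 and 3.76 in VC and 4.23, 4.34 and 4.11 in KO (0.48, standard error 0.0845, adjusted p = 0.0165). SPRED3 had 1.03, 0.98 and 1.06 in VC and 1.41, 1.59 and 1.46 in KO (0.46, standard error 0.0777, adjusted p = 0.0153). None of the 3 had overlapping groups, and the rises were of 1.38-fold to 1.41-fold. NF1, which encodes neurofibromin, was lower in KO (-0.42 on the log2 scale, adjusted p = 0.0353), and it is on the same study list as DUSP7. Each SPRED call was lost without VC replicate 1, 2 or 3 (adjusted p = 0.0502 to 0.0689), and those of SPRED1 (0.0615) and SPRED3 (0.0525) also without KO replicate 3.

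ETV1, ETV4 and ETV5 are ETS transcription factors of the PEA3 subfamily, whose transcription commonly follows FGF and ERK signalling. ETV5 had log2 signals of 4.62, 4.58 and 4.65 in VC and 5.29, 5.81 and 5.29 in KO, without overlap (log2 fold change 0.85, standard error 0.161, adjusted p = 0.0197). ETV4 had 5.57, 5.41 and 5.56 in VC and 5.52, 5.38 and 5.45 in KO, so the groups overlapped (-0.07, 95% interval -0.27 to 0.14). Its sign depended on the scaling, with 0.016 after each library was centred on its median over the genes with 6 values. ETV1 had 2.31 in each VC library and 2.27, 2.16 and 2.18 in KO, a difference of -0.11 that did not pass the test (adjusted p = 0.256). The call of ETV5 was lost without VC replicate 1, 2 or 3 (adjusted p = 0.0659, 0.0615 and 0.0659).

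PHLDA1, a pleckstrin homology-like protein induced by ERK signalling, had 5.08, 5.01 and 5.05 in VC and 5.99, 6.33 and 5.97 in KO. All KO libraries were well above the VC libraries, a 2.07-fold rise (log2 fold change 1.05, standard error 0.119, adjusted p = 0.00899). PHLDA2, an imprinted relative, had 7.0, 6.84 and 7.01 in VC and 7.32, 7.38 and 7.30 in KO, a smaller rise without overlap (0.38, standard error 0.0786, adjusted p = 0.0236). IL17RD, also called Sef, is a membrane protein that restrains FGF receptor and ERK signalling. It had -0.66, -0.81 and -0.70 in VC and -1.53, -1.17 and -1.25 in KO, with every KO value below every VC value (-0.60, standard error 0.118, adjusted p = 0.0208). Like DUSP7, IL17RD was on the study's MAPK list drawn from these libraries, and on the log2(signal + 1) scale it differed by -0.20. The calls of PHLDA2 and IL17RD were lost without VC replicate 1, 2 or 3 or KO replicate 3 (adjusted p = 0.0521 to 0.0739).

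To compare members in a way that a constant scale factor per library does not change, the difference of the log2 signals of 2 genes was taken within each library for 6 pairs, which were chosen after their values had been seen. DUSP6 minus DUSP7 was 0.47, 0.58 and 0.50 in VC and 2.06, 2.95 and 2.28 in KO. The difference between the mRNA signals of these 2 genes was shifted toward DUSP6 by 1.91 ± 0.46 (SD of the 3 KO libraries) on the log2 scale. DUSP10 minus DUSP8 was -0.88, -0.86 and -1.29 in VC and 1.03, 0.77 and 0.24 in KO, a shift of 1.69 toward DUSP10. These are differences of signals, and only their shift between groups is read, since the unit may depend on gene length. ETV5 minus ETV4 was -0.95, -0.83 and -0.91 in VC and -0.22, 0.43 and -0.16 in KO. SPRY2 minus SPRY1 was 3.41, 3.44 and 3.39 in VC and 4.24, 4.68 and 4.0 in KO, a shift of 0.89. The shifts of DUSP1 minus DUSP2 and of DUSP18 minus DUSP26 were 1.71 and 3.52. In each of the 6 pairs the VC and KO values did not overlap. For DUSP6 and DUSP7, DUSP10 and DUSP8, DUSP1 and DUSP2, and DUSP18 and DUSP26 this was fixed in advance. In these pairs all KO values of the first gene lay above VC and all those of the second lay below. Each exact permutation test gave a two-sided p of 0.1 (0.1 after Benjamini-Hochberg adjustment over the 6 pairs), which is the smallest that 3 libraries against 3 can reach. Because the pairs were picked on these values, the tests add no support to the shifts.

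**Figure D3:**
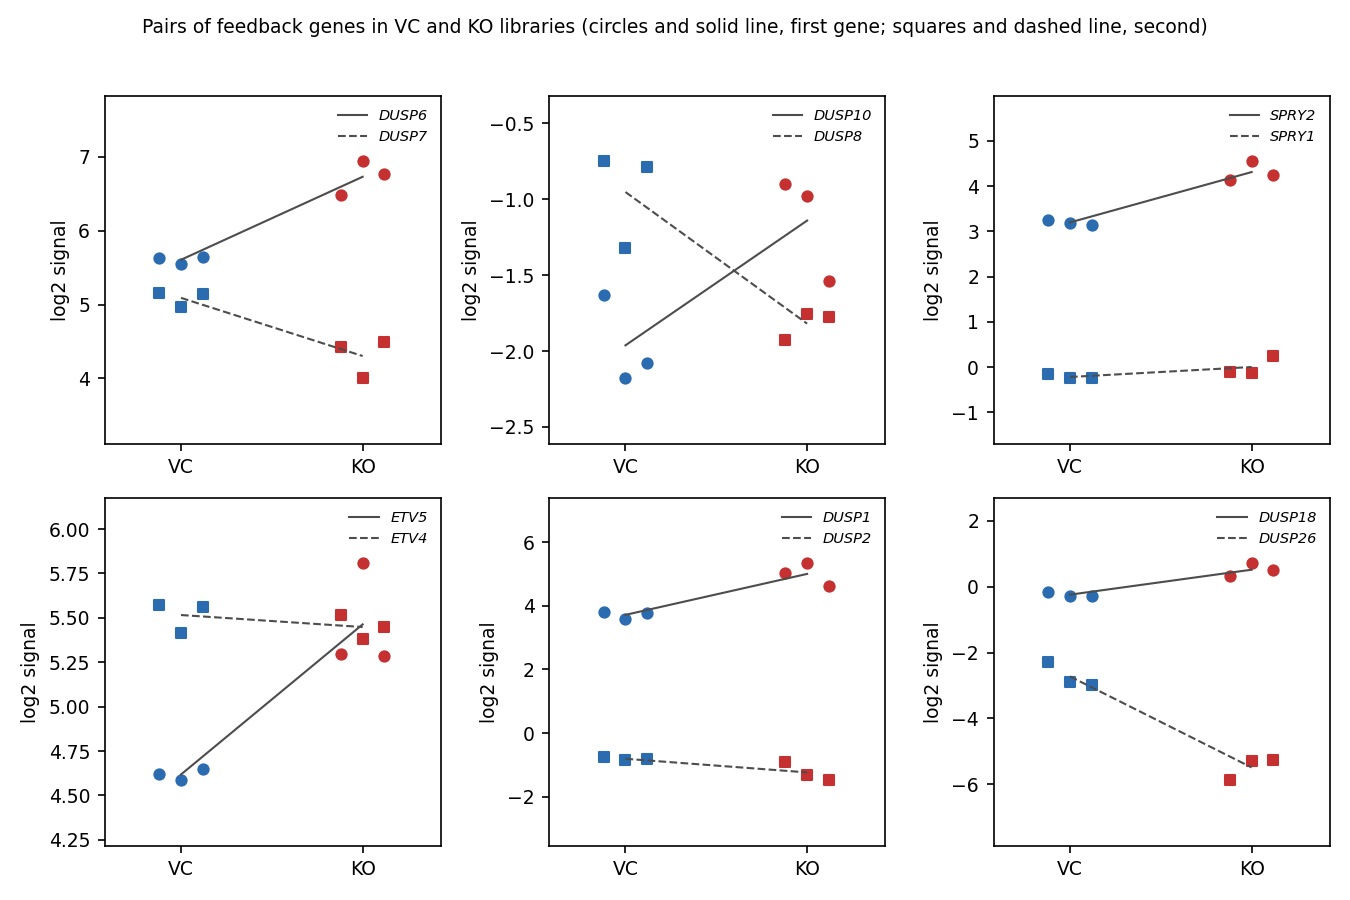
Log2 signals (y axis) of 6 pairs of feedback genes in the 3 VC libraries (blue) and the 3 KO libraries (red), in order of replicate number within each group, with lines joining the group means. Circles and solid lines show the first gene of each pair and squares and dashed lines the second. The line of DUSP10 goes up and that of DUSP8 down, as do those of DUSP6 and DUSP7.

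The KO libraries differed in how far they had moved. Over the 13 higher members the median deviation from the VC mean was 0.68, 0.98 and 0.73 in KO replicates 1, 2 and 3 and between -0.04 and 0.03 in the VC libraries. KO replicate 2 was the farthest from VC in 12 of the 13, and in 79.1% of all genes called higher with 6 values. The exception, DUSP10, was highest in KO replicate 1. For the 5 lower members the median deviations were -0.81, -0.80 and -0.60, and KO replicate 1 was farthest in 3 and KO replicate 2 in 2. Without KO replicate 2, 16 of the 32 members passed the test, with DUSP10 (adjusted p = 0.12) and DUSP19 (0.103) lost.

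Other genes of the pathways were read from lists of textbook members, chosen with earlier results of these data known. Of 26 genes of the ERK cascade from receptor to nuclear targets, 1 was higher, 7 were lower and 18 did not pass the test, with a median log2 fold change of -0.06, where 13.1% of all genes were called higher and 19.8% lower. The differences of largest size were those of RPS6KA2, an ERK-activated S6 kinase (1.59, adjusted p = 0.0132), EGFR, the epidermal growth factor receptor (-1.29, adjusted p = 0.00571), and SOS1, a RAS exchange factor (-0.98, adjusted p = 0.0307). Of 18 JNK and p38 pathway kinases, 1 was higher and 4 were lower, led by MAP2K6, a p38 activator (-1.04, adjusted p = 0.0328), MAPK13, a p38 isoform (0.93, adjusted p = 0.0399), and MAP3K1 (-0.47, adjusted p = 0.033). The share of these kinases called lower was near the 19.8% of all genes. EGFR, SOS1, MAP2K6 and MAP3K1 are also on the MAPK list that the study drew from these libraries, so their directions are not independent evidence.

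Of 24 immediate early and ERK output genes outside the feedback group, 23 had enough values, and 16 were higher, 1 was lower and 6 did not pass the test, where 13.1% of all genes were called higher and 19.8% lower. Their median log2 fold change was 0.71. As the list was chosen with earlier results of these data known, its count and median are not independent evidence. The largest rises were those of AREG, an EGF receptor ligand (3.84, adjusted p = 0.00675), LIF, a cytokine (3.73, adjusted p = 0.00553), and ATF3, a stress-responsive transcription factor (2.16, adjusted p = 0.0107). The gene called lower was FOSL2 (-0.27, adjusted p = 0.0402). The 6 that did not pass were EGR2 (-0.49), CCND1 (-0.19), FOSL1 (-0.14), ZFP36 (-0.12), FOSB (0.11) and JUND (0.16). LIF lies on chromosome 22. Several genes of this list respond to stress kinases and cytokines as well as to ERK, and which input their levels followed was not tested. The study reported lower phosphorylated ERK and JNK in KO cells on an antibody array. By immunostaining it reported less phosphorylated ERK, with ERK retained, in KO xenografts. It also reported by western blot that phosphorylated ERK and JNK were restored in KO cells given isoproterenol, used there as an ERK agonist. The mRNA levels given here do not measure phosphorylation.

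**Figure D4:**
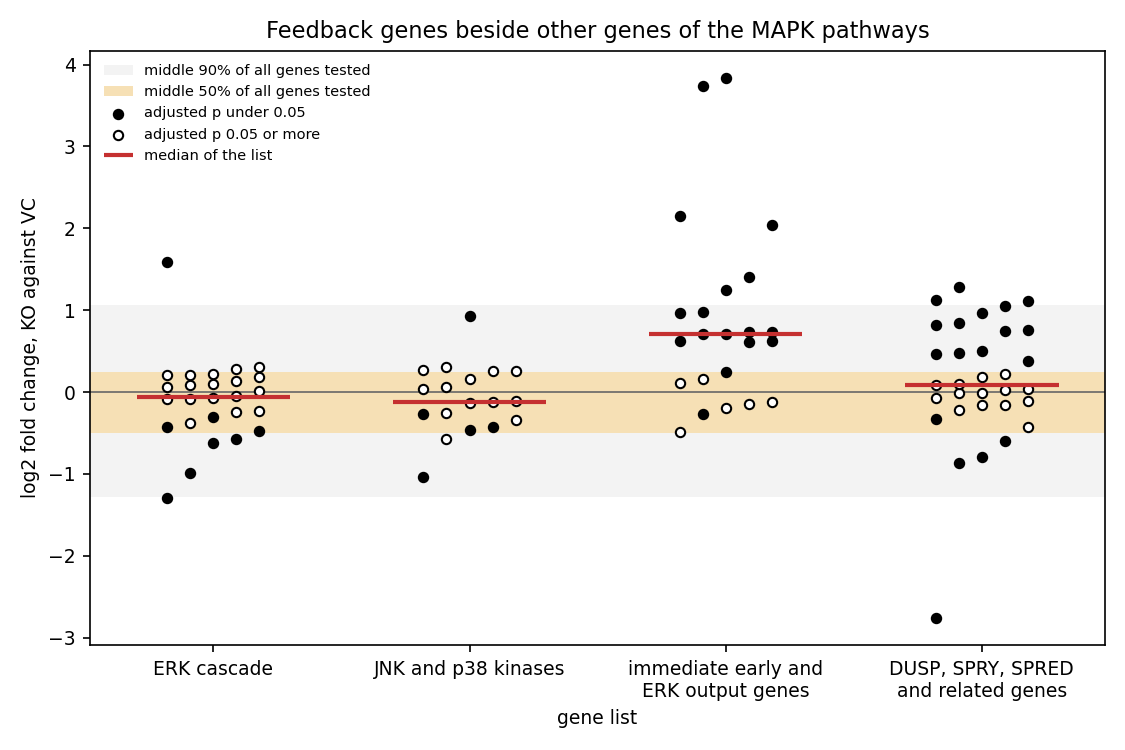
Log2 fold change of KO against VC (y axis) for the genes of 3 MAPK pathway lists and for the 32 measured feedback genes (x axis). Each point is a gene, filled where its adjusted p was under 0.05, and the red bars are list medians of -0.06, -0.12, 0.71 and 0.09 from left to right. The bands span the middle 50% and the middle 90% of all genes tested. The lists were chosen with earlier results of these data known.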

How the data were processed

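RNA sequencing of 3 VC and 3 CNTNAP4 KO libraries of 143B cells was analysed. The authors deposited 1 log2 signal per gene and library, quantile-normalized between libraries. Per the labels, the submitters' processing notes name CASAVA, STAR and Partek and the build GRCh38.p13, and the study's methods add CLC Genomics software. Versions, annotation, strand setting and counting rule are not given in the sources used here. Without counts, depth is unknown and no counting error can be given. Because signals were quantile-normalized, a shift common to most genes would be removed.

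Libraries were grouped by their titles. The 19306 genes that had 2 or more values in both groups entered limma 3.58.1 (R 4.3.3) with no mean-variance trend, and the two-sided p-values were Benjamini-Hochberg adjusted over all these genes. The test was checked on simulated data. P-values measure the spread between these RNA samples. Members and lists were chosen with earlier results of these data known. Values in every library are given for members that passed the test and for DUSP7 and IL17RD, and, beyond that rule, for others where they help. From each pathway list the 3 called genes with the largest change are named, with NF1 added after its values were seen. FOSL2 and the immediate early and ERK output genes that did not pass are also named. Role groups follow textbook knowledge. Promoters came from RefSeq. Alternatives were a replicate block, each library left out, filters, a pseudocount of 1, median centring and other variance models.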

Additional observations from a re-analysis of the deposited data

How the results depend on the processing

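Of 405 member values under the alternatives, 328 had the same direction and side of the threshold, 61 no longer passed, 3 newly passed and 13 changed sign. DUSP5, DUSP6, DUSP26, SPRY2 and PHLDA1 passed in every fit that tested them (DUSP26 was not among the upper 50% of mean signal). Replicate numbers did not pair the libraries (correlation of same-numbered deviations 0.023, 0.0051 and -0.0074). With a replicate block, 6 members (4 higher, 2 lower) and 1533 genes (594 higher, 939 lower) passed, among the members DUSP5, DUSP6, DUSP7, DUSP26, SPRY2 and PHLDA1. With single libraries left out the number of members passing was 5 to 17 (4 to 12 higher, 1 to 5 lower), fewest without VC replicate 3, and that of all genes 1223 to 8669 (654 to 2940 higher, 569 to 5729 lower). Without variance moderation 2442 genes were lower. In the upper 50% of mean signal, which held 21 of the 32 members, 1 member was lower. DUSP8, DUSP19, DUSP26 and IL17RD were not tested there.

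The median over members moved from 0.09 to 0.38 in the upper 50% of mean signal, 0.074 with 1 added to the linear signal and 0.17 with median-centred libraries, and lay between 0.082 and 0.12 with single libraries left out. In the upper 50% of mean signal the medians were 0.96 for 3 nuclear inducible MKPs, 0.055 for 4 atypical DUSPs and 0.72 for PHLDA1 and PHLDA2. DUSP2, IL17RD and the other atypical DUSPs were dropped by this filter, so these medians cover fewer genes than the main ones. With median-centred libraries they were 0.18 for JNK/p38 MKPs, 0.071 for atypical DUSPs, 0.46 for PHLDA1, PHLDA2 and IL17RD and 0.016 for the ETS genes. With single libraries left out, that of atypical DUSPs ran from -0.065 to 0.038 and that of PHLDA1, PHLDA2 and IL17RD from 0.33 to 0.41. The median of all genes tested, -0.13, was -0.042 with median centring and -0.023 with 1 added. All sign changes were in members that did not pass. With median centring DUSP22 was 0.070, DUSP14 0.072 and ETV4 0.016. With single libraries left out the ranges were -0.077 to 0.026 for DUSP22, -0.099 to 0.047 for DUSP14, -0.093 to 0.19 for DUSP4, -0.0041 to 0.086 for DUSP3 and -0.51 to 0.066 for DUSP15. The unknown depth limits what can be said of DUSP26, DUSP15, DUSP10 and DUSP8. The cause of these changes was not tested.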
